A study of Mus musculus with 32 samples.

Results

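CHD4 binding was compared between 2 h after induction of Ikaros and the uninduced state in the mouse pre-B line B3, over 13791 regions merged from the 4 CHD4 peak lists of the 2 times. A region was gained when both 2 h libraries and neither 0 h library called it (801 regions), lost when both 0 h libraries and neither 2 h library called it (230), and kept when all 4 called it (1093). The other 11667 regions were called in some other combination and belonged to none of the 3 classes. Promoters made up 56.2% of the gained regions, 32.6% of the lost and 38.8% of the kept ones, and 37.0%, 20.9% and 28.9% with a −log10 q of at least 3. H3K27ac and Ikaros had no part in choosing the regions. Over the 4 times the H3K27ac rank fell at lost regions and rose at gained ones, although neither trend passed when ranked over all peaks of a list (rho = -0.537 and 0.586, both with an adjusted exact permutation p of 0.233). The share of gained regions with an Ikaros peak rose, and over all CHD4 regions it went from 33.3% and 39.5% at 0 h to 53.6% and 56.8% at 2 h.

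B3 cells had been transduced with a retrovirus carrying HA-tagged Ikaros fused to ERt2, a hormone-binding domain that keeps the protein out of the nucleus until 4-hydroxytamoxifen (4-OHT) is added, together with GFP, by which the cells were sorted. The 0 h libraries came from these cells without 4-OHT, and the others from cells given 500 nM 4-OHT for 30 min, 1 h or 2 h, so all groups carried the fusion protein. CHD4, HA-Ikaros and H3K27ac were each mapped by ChIP-seq in 2 replicates at each of these times, giving 24 peak lists from the 32 samples, and the comparison rests on the 4 CHD4 lists at 0 h and 2 h. A single cell line was used and the labels do not say whether replicates were separate cultures, so the p-values measure only the spread between these samples.

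CHD4 is the ATPase of the nucleosome remodelling and deacetylase (NuRD) complex, which slides nucleosomes and, through HDAC1 and HDAC2, removes acetyl groups from histones. Ikaros, a zinc-finger transcription factor needed for lymphocyte development, associates with NuRD in lymphoid cells. H3K27ac marks active promoters and enhancers, and NuRD is known to sit at many acetylated elements as well as at repressed ones.

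The sequences printed here are examples of the classes and of a gained and a lost region in the same intron. They are the leading gained and lost regions with an Ikaros summit, regions within 20 kb of a transcription start site of B-lineage transcription factor genes, and a kept promoter. Intron in a label means inside a transcript of any gene and outside exons. The gene in a label is the nearest one or the listed one within 20 kb, and need not be the gene whose intron it is. Each run is from the mm10 forward strand and reaches 100 bases to either side of the Ikaros summit of highest fold in any Ikaros list within the region, and capitals mark GGGAA or its complement TTCCC, the core that Ikaros recognises.
Ppp1r16b intron, gained (chr2:158719029-158719229): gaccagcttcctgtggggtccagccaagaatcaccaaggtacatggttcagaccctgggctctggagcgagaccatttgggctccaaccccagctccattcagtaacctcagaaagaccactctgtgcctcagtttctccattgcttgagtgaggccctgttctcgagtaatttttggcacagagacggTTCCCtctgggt
Foxo1 promoter, gained (chr3:52267929-52268129): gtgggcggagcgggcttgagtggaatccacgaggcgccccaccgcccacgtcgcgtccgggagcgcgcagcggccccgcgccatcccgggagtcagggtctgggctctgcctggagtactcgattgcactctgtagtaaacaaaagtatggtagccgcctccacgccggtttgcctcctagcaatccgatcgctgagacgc
Bcl11a, gained (chr11:24081814-24082014): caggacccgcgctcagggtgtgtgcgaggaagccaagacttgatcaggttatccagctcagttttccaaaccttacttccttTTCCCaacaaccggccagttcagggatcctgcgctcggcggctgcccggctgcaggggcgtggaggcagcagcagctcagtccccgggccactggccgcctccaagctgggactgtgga
Runx1 intron, gained (chr16:92706643-92706843): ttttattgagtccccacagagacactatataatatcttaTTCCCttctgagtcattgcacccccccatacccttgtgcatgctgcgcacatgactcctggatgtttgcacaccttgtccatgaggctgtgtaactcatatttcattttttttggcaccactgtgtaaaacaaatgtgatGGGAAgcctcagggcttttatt
Runx1 intron, lost (chr16:92709650-92709850): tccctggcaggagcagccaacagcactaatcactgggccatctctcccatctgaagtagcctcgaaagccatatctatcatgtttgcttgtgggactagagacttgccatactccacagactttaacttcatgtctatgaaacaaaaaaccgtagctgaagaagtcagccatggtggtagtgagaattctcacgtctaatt
distal to Prdm10, lost (chr9:31266201-31266401): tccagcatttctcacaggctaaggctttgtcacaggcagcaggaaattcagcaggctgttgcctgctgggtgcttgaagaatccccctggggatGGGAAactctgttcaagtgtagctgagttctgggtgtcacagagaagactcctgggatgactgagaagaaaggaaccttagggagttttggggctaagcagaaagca
Irf8 intron, lost (chr8:120763354-120763554): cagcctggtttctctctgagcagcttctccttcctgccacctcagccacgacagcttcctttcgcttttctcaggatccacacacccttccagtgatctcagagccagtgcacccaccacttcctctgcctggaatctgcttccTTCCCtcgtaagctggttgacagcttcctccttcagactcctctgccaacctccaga
Rfwd3 promoter, kept (chr8:111300446-111300646): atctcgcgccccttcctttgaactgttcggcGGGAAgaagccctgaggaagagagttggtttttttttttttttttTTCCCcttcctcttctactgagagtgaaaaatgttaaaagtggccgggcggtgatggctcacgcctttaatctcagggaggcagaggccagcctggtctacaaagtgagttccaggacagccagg

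The windows at Foxo1 and at the lost Runx1 region held no match, those at the gained Runx1 region and at Rfwd3 held 2 each, and the other 4 held 1 each. Over windows of the same length centred on the middle of each region, GGGAA or TTCCC was present in 384 of 801 gained regions (47.9%), 130 of 230 lost (56.5%) and 517 of 1093 kept (47.3%), against 46.3% of all 13791. Among distal regions alone the core was present in 155 of 351 gained, 93 of 155 lost and 292 of 669 kept windows, against 43.6% of all distal windows. Among promoters the order turned, with the core in 37 of 75 lost (49.3%), 229 of 450 gained (50.9%) and 225 of 424 kept windows (53.1%), against 50.2% of all promoter windows. The other short words were also commoner in lost than in gained regions over promoter and distal windows combined. AGGAAG, an ETS-family core that shares the letters GGAA with the Ikaros core, was in 39.1% of lost and 26.7% of gained windows, against 3860 of all 13791. TGTGGT, a RUNX core, was in 22.2% and 14.9%, against 16.8% of all. CAGCTG, an E-box, was in 46 lost and 78 gained windows, against 1562 of all, and the E-box CAGGTG was in 38 and 102, against 1913. In promoter windows alone TGTGGT went the other way, with 9.33% of lost and 12.2% of gained windows, against 13.6% of all promoter windows. All words were searched on both strands. The promoter windows of the gained class were richest in CpG, with a mean of 9.63 CpG per window, against 7.76 for lost, 6.51 for kept and 8.23 for all promoter windows. A window of fixed length covers a smaller part of a wide region, and the classes differ in width, which was not adjusted for. A match is a description of the letters and not a bound site.

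The 4 CHD4 lists differed more in length between replicates than between times. The 0 h lists held 2488 and 6000 peaks in replicates 1 and 2, and the 2 h lists held 5523 and 9593. Both 2 h lists exceeded the 0 h list of the same number, but the shorter 2 h list was below the longer 0 h list. The mean was 4244 ± 2483 (SD, n = 2) at 0 h and 7558 ± 2878 at 2 h (exact two-sided permutation p = 0.667). With 2 libraries against 2 this test cannot go below 0.333, so none of the values given per library could pass a threshold of 0.05. Sequencing depth could not be recovered for CHD4, whose broad lists hold means along each region. Ikaros and H3K27ac peaks were called at a recovered mean coverage of 1.98 to 3.40 and 2.69 to 3.75 fragments per base, with 5373 to 14874 and 21468 to 33664 peaks per list. Promoters of the pre-B genes Cd79a, Cd79b, Pax5, Ebf1, Igll1, Vpreb1, Vpreb3 and Blnk had an H3K27ac peak in all 4 H3K27ac libraries at 0 h and 2 h, and Rag1 in 3 of 4. None of 4 T cell promoters had one. Of 4 myeloid promoters only Lyz2 had a peak, in 1 library, and of 3 erythroid promoters Hbb-bt and Klf1 had one in all 4 libraries while Gata1 had none.

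Gained regions made up 5.81% of the 13791 regions, lost regions 1.67% and kept regions 7.93%. Gained outnumbered lost regions 801 to 230, but this order depended on the length of the lists. When each list was cut to its 2488 peaks of highest −log10 p, 194 regions were gained, 450 lost and 389 kept, and with a −log10 q of at least 3 there were 54, 67 and 45. With a fold of at least 3 gains still exceeded losses, with 481 gained, 341 lost and 772 kept. Dropping a library relaxes the rule, and each moved a count by over 1.5 times. Without replicate 1 at 0 h 904 regions were gained, 1750 lost and 2053 kept, without replicate 2 at 0 h 1765 were gained and 458 lost, without replicate 1 at 2 h 5403 were gained, and without replicate 2 at 2 h 3136 were gained and 768 lost.

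Most regions were called in a single library. The largest pattern was replicate 2 at 2 h alone, with 4555 regions, followed by replicate 1 at 2 h alone (2148) and replicate 2 at 0 h alone (1506). Exchanging replicate for time gives the pattern of both replicate 2 libraries and neither replicate 1 library, which held 1312 regions, more than the gained class. The reverse of it, both replicate 1 libraries and neither replicate 2 library, held 37. Regions called in all but replicate 1 at 0 h, the shortest list, numbered 965. The 2 crossed patterns, replicate 1 at 0 h with replicate 2 at 2 h and replicate 2 at 0 h with replicate 1 at 2 h, held 153 and 149.

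**Figure D1:**
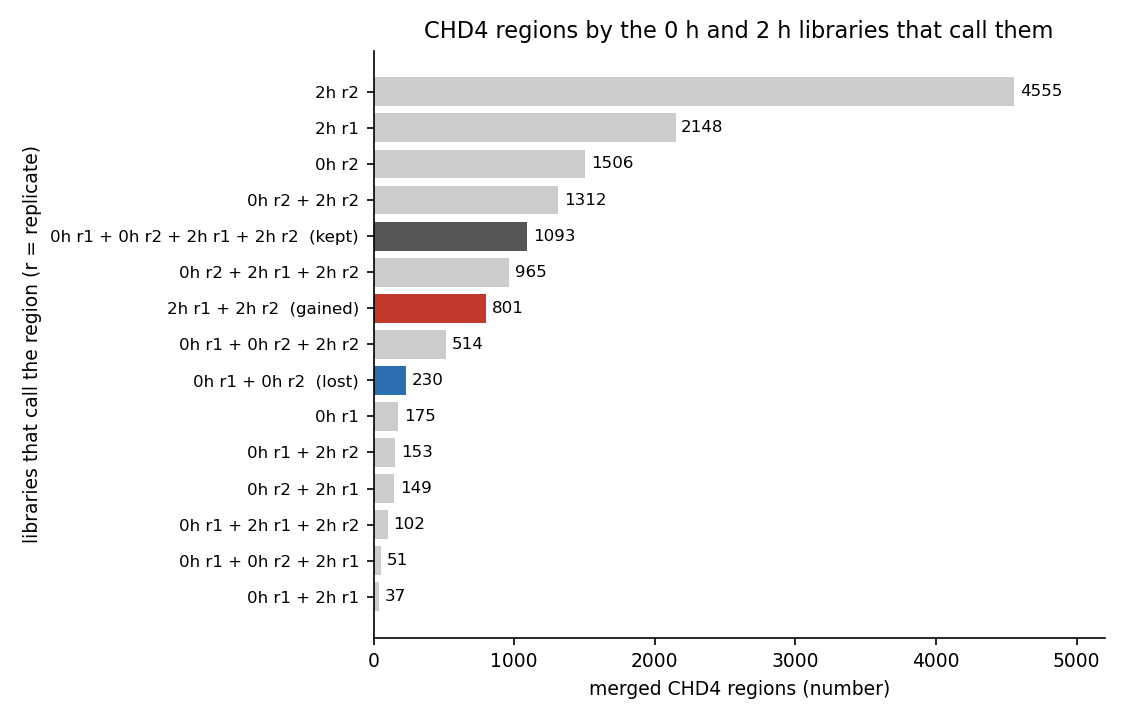
Number of merged CHD4 regions (x axis) for each combination of the 0 h and 2 h CHD4 libraries that call them (y axis), with gained in red, lost in blue and kept in dark grey. The bar of both replicate 2 libraries (1312) is longer than that of the gained class (801), and the lost class holds 230.

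Gained and lost regions were narrow and weakly called next to the kept ones. The median width was 1222 bp for gained (quartiles 850 and 1671), 876 bp for lost (625 and 1153), 2542 bp for kept (1752 and 3684) and 795 bp over all regions. A region merged from more lists can only be wider. Overlaps were by 1 bp, so a wider region can meet more peaks and more transcription start sites. Shares compared between classes were not adjusted for width. In the 2 h lists the median −log10 q of gained regions was 1.55 in replicate 1 and 1.83 in replicate 2, and 617 (77.0%) and 456 (56.9%) of the 801 were under 2. For lost regions in the 0 h lists it was 2.02 and 1.82, and the weakest calls of the 4 lists were between 1.01 and 1.07. For kept regions the median was 2.34 and 2.22 at 0 h and 1.96 and 2.55 at 2 h. Kept regions under 2 made up 33.5% and 38.4% at 0 h and 52.7% and 22.4% at 2 h. Kept regions ranked highest by fold enrichment over the local background, with median percentile ranks within a list of 57.5 and 67.5 at 0 h and 67.1 and 72.2 at 2 h. Gained regions stood at 51.8 and 51.3 and lost regions at 49.9 and 57.4. These ranks come from the lists that define the classes, and each region takes its highest peak. A call in all 4 lists and a wider region both favour a high rank, so this order is partly fixed by the rule. A peak of a 0 h list lay within 1 kb of 8 gained regions in replicate 1 and 59 in replicate 2, and a 2 h peak within 1 kb of 9 and 23 lost regions. In 5 gained and 8 kept regions the fold was under 2 in every list that called them, and the widest kept region spanned 38177 bp.

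Promoters, defined as regions within 1 kb of a transcription start site (TSS), made up 450 of 801 gained regions (56.2%), 75 of 230 lost (32.6%), 424 of 1093 kept (38.8%) and 40.2% of all. The order held with lists of equal length (54.1%, 25.8% and 36.2%) and with a fold of at least 3 (59.0%, 30.2% and 40.9%). Under the q threshold of 3 the shares were 37.0%, 20.9% and 28.9% of 54 gained, 67 lost and 45 kept regions, of which 7, 11 and 45 overlapped the class of the same name. Distal gained and lost regions lay at like distances from the nearest TSS, with medians of 8795 and 9619 bp, against 9496 bp for kept ones. The middle of the region was in an intron for 122 lost regions (53.0%), 323 gained (40.3%) and 473 kept (43.3%), and was intergenic for 73 (31.7%), 325 (40.6%) and 502 (45.9%). Over whole lists, promoter peaks made up 30.7% and 36.3% of the CHD4 peaks at 0 h and 38.2% and 42.0% at 2 h, so the 2 times did not overlap (difference 6.65 percentage points, exact permutation p = 0.333, the smallest possible).

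The CHD4 libraries at 30 min and 1 h were not used to define the classes. Gained regions were called in 26.0% and 19.0% of cases by replicates 1 and 2 at 30 min and in 45.2% and 41.2% at 1 h. Over all 13791 regions the shares were 24.9% and 21.2% at 30 min and 33.7% and 31.1% at 1 h, so the gained class lay on both sides of the general share at 30 min and above it at 1 h. Lost regions were called in 30.9% and 16.1% at 30 min and 35.2% and 26.1% at 1 h, above the general share in replicate 1 and below it in replicate 2. Kept regions were called in 85.5% and 79.1% at 30 min and 93.0% and 89.8% at 1 h. In all, 547 gained regions (68.3%) and 134 lost ones (58.3%) had a call in at least 1 of these 4 libraries, but only 47 and 9 had a call in all 4, against 710 of the 1093 kept regions. The 1312 regions of both replicate 2 libraries and neither replicate 1 library were called in 34.5% and 28.8% at 30 min and 48.0% and 44% at 1 h, above the gained class in all 4 libraries.

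**Figure D2:**
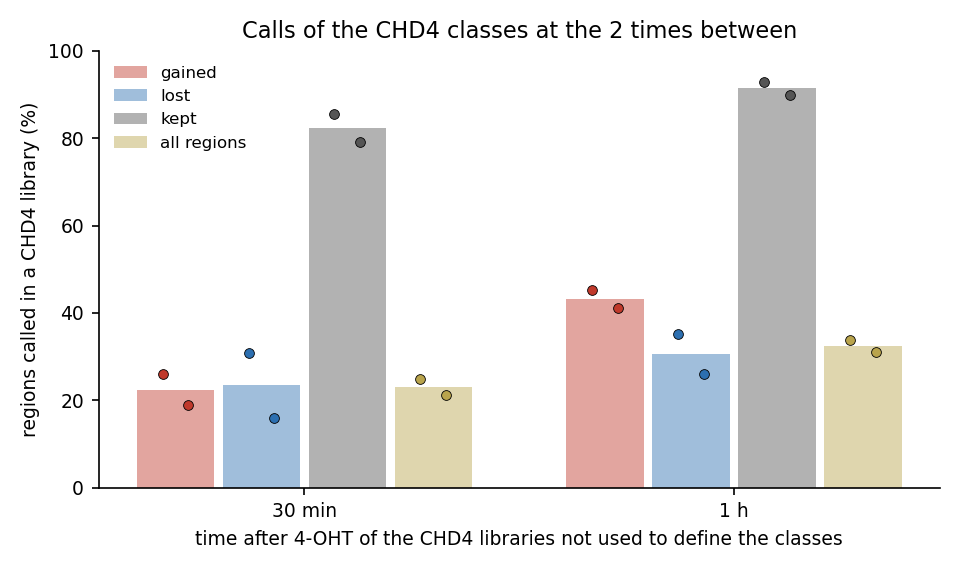
Percent of gained, lost, kept and all CHD4 regions (y axis) called in the CHD4 libraries at 30 min and 1 h (x axis), with bars at the mean of 2 replicates and a point for each. Gained regions reach 45.2% and 41.2% at 1 h, above lost (35.2% and 26.1%) and all regions, while kept regions are above 79% in each library.

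Acetylation went down where CHD4 was lost. An H3K27ac peak overlapped 95.7% and 94.8% of lost regions in replicates 1 and 2 at 0 h, 95.7% and 90.4% at 30 min, 89.1% and 82.2% at 1 h, and 83.9% and 80.0% at 2 h. Both 2 h values were below every value at 0 h and 30 min. This fall passed the test over the 8 H3K27ac libraries, adjusted over 11 trends (Spearman's rho -0.859 with an exact permutation p of 0.0127, or 0.0233 adjusted, and Pearson's r -0.878 with an exact permutation p of 0.00556, or 0.0196 adjusted, and r -0.812 leaving out 2 h). At gained regions the share was 89.8% and 87.9% at 0 h, 93.8% and 90.8% at 30 min, 91.6% and 90.1% at 1 h, and 93.4% and 92.3% at 2 h, a trend that did not pass (Spearman's rho 0.634 with an exact permutation p of 0.11, or 0.152 adjusted, and Pearson's r 0.638 with an exact permutation p of 0.0944, or 0.130 adjusted, and r 0.469 leaving out 2 h). Kept regions held between 95.9% and 97.1% in all 8 libraries (Spearman's rho 0.174 with an exact permutation p of 0.711, or 0.711 adjusted, and Pearson's r 0.0876 with an exact permutation p of 0.831, or 0.831 adjusted, and r 0.0463 leaving out 2 h). Over all CHD4 regions the share was 77.9% and 75.8% at 0 h and 78.3% and 76.4% at 2 h.

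The relative strength of H3K27ac was measured as the mean percentile rank of fold among the 14716 regions called in all 8 H3K27ac libraries, of which 702 overlapped gained, 178 lost and 976 kept CHD4 regions. At lost regions the rank was 63.1 and 63.0 in replicates 1 and 2 at 0 h, 49.0 and 50.4 at 30 min, 46.2 and 47.8 at 1 h, and 45.8 and 43.3 at 2 h. The largest step came between 0 h and 30 min, and every later library was below both 0 h values (Spearman's rho -0.976 with an exact permutation p of 0.000794, the smallest these times allow, or 0.00437 adjusted, and Pearson's r -0.837 with an exact permutation p of 0.0198, or 0.0312 adjusted, and r -0.930 leaving out 2 h). At gained regions the rank went the other way, from 61.8 and 60.5 at 0 h through 63.8 and 63.3 at 30 min and 64.5 and 63.6 at 1 h to 67.0 and 66.1 at 2 h (Spearman's rho 0.927 with an exact permutation p of 0.00317, or 0.00873 adjusted, and Pearson's r 0.945 with an exact permutation p of 0.00119, or 0.0131 adjusted, and r 0.870 leaving out 2 h). Kept regions ranked highest throughout, at 77.9 and 76.7 at 0 h, 74.5 and 74.3 at 30 min, 73.7 and 73.3 at 1 h, and 75.9 and 74.2 at 2 h (Spearman's rho -0.586 with an exact permutation p of 0.153, or 0.187 adjusted, and Pearson's r -0.434 with an exact permutation p of 0.275, or 0.337 adjusted, and r -0.934 leaving out 2 h).

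Set against kept regions in the same library, both classes changed. Lost regions stood 14.8 and 13.8 percentile points below kept ones at 0 h in replicates 1 and 2 and 30.1 and 30.9 points below them at 2 h (Spearman's rho -0.927 with an exact permutation p of 0.00317, or 0.00873 adjusted, and Pearson's r -0.890 with an exact permutation p of 0.00714, or 0.0196 adjusted, and r -0.916 leaving out 2 h). Gained regions closed from 16.0 and 16.2 points below kept ones to 8.89 and 8.14 points below (Spearman's rho 0.976 with an exact permutation p of 0.000794, or 0.00437 adjusted, and Pearson's r 0.847 with an exact permutation p of 0.0163, or 0.0312 adjusted, and r 0.946 leaving out 2 h). These calls held when the CHD4 classes were drawn from lists of equal length and from peaks with a fold of at least 3. Ranked over all peaks of each list instead, the fall at lost regions (rho = -0.537, adjusted p = 0.233, exact permutation test), the rise at gained regions (rho = 0.586, adjusted p = 0.233) and the lost minus kept trend (rho = -0.634, adjusted p = 0.202) no longer passed. A rank is relative, so a fall at some regions and a rise at the others cannot be told apart.

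**Figure D3:**
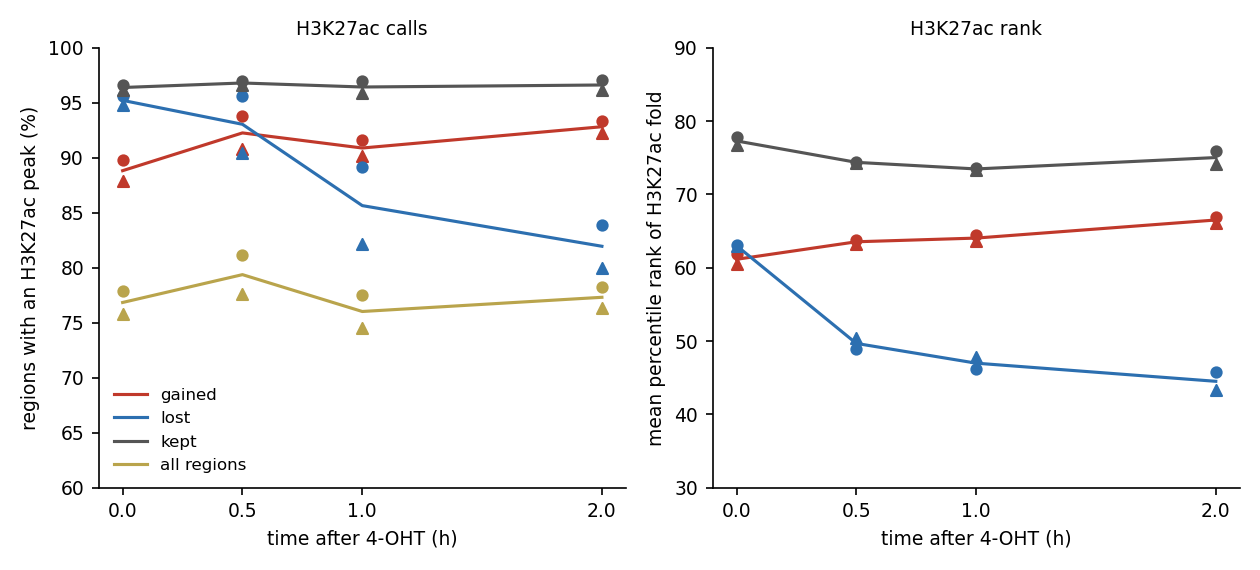
Left, percent of CHD4 regions with an H3K27ac peak (y axis, from 60%), and right, mean percentile rank of H3K27ac fold among regions called in all 8 libraries, against hours after 4-OHT, with circles for replicate 1, triangles for replicate 2 and lines through the means. Lost regions drop from 95.7% and 94.8% to 83.9% and 80.0% and from rank 63.1 and 63.0 to 45.8 and 43.3, while gained regions go from rank 61.8 and 60.5 to 67.0 and 66.1.

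Whole gains and losses of acetylation were few. Of 36178 merged H3K27ac regions, 4.71% were gained by the same rule and 3.22% lost. At gained CHD4 regions 23 of 801 H3K27ac regions (2.87%) were gained and 0 were lost, and at lost CHD4 regions 18 of 222 (8.11%) were lost and 0 were gained. At kept CHD4 regions 8 of 1100 were gained and 8 were lost. Seen from the CHD4 side, 692 gained regions (86.4%), 178 lost (77.4%) and 1037 kept (94.9%) overlapped an H3K27ac peak in all 4 libraries, against 70.4% of all CHD4 regions. The promoters among gained regions were nearly all acetylated at both times, at 97.6% and 96.0% at 0 h and 98.4% and 98.0% at 2 h, and the distal ones went from 79.8% and 77.5% to 86.9% and 84.9%. In the lost class the shares at promoters were 97.3% and 96.0% at 0 h and 85.3% and 81.3% at 2 h, and those at distal regions were 94.8% and 94.2% and then 83.2% and 79.4%. Over whole lists, 93.8% and 91.2% of CHD4 peaks at 0 h and 77.2% and 83.3% at 2 h overlapped an H3K27ac peak of the same time and replicate number, a difference of -12.3 percentage points with no overlap between the times (exact permutation p = 0.333, the smallest possible). With a −log10 q of at least 3 the difference was -2.97 points (exact permutation p = 1).

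The share of gained regions with an Ikaros peak rose after induction. Such a peak overlapped 30.8% and 36.2% of them in replicates 1 and 2 at 0 h, 49.8% and 29.5% at 30 min, 62.7% and 69.7% at 1 h, and 73.0% and 74.0% at 2 h. At 1 h and 2 h every library was above every library at 0 h and 30 min (Spearman's rho 0.878 with an exact permutation p of 0.0103, or 0.0227 adjusted, and Pearson's r 0.886 with an exact permutation p of 0.00397, or 0.0196 adjusted, and r 0.857 leaving out 2 h). Over all CHD4 regions the share went from 33.3% and 39.5% at 0 h to 53.6% and 56.8% at 2 h, so gained regions were below the general share in both replicates at 0 h and above it in both at 2 h. Region width, with a median of 1222 bp for gained, 2542 bp for kept and 795 bp over all regions, was not adjusted for. Kept regions rose as well, from 74.7% and 80.1% at 0 h through 85.0% and 73.2% at 30 min and 91.4% and 93.5% at 1 h to 93.6% and 93.3% at 2 h (Spearman's rho 0.830 with an exact permutation p of 0.0198, or 0.0312 adjusted, and Pearson's r 0.807 with an exact permutation p of 0.0187, or 0.0312 adjusted, and r 0.795 leaving out 2 h). That call was lost when CHD4 peaks had a fold of at least 3 (rho = 0.781, adjusted p = 0.0549, exact permutation test).

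Lost regions had many Ikaros peaks before induction. The share was 77.8% and 86.5% at 0 h, 63.0% and 43.9% at 30 min, 67.4% and 76.5% at 1 h, and 58.7% and 63.0% at 2 h. Both 2 h values were below both 0 h values, but no trend passed across the time course (Spearman's rho -0.540 with an exact permutation p of 0.183, or 0.201 adjusted, and Pearson's r -0.396 with an exact permutation p of 0.341, or 0.375 adjusted, and r -0.307 leaving out 2 h). With the 8 Ikaros lists cut to 5373 peaks each it did pass (rho = -0.976, adjusted p = 0.00218, exact permutation test), and with CHD4 lists of equal length rho was -0.0245. The Ikaros peaks of lost regions were among the strongest at 0 h and not later, a measure chosen after the values were seen and given with no test. Their median percentile rank within the Ikaros list was 82.8 and 80.8 at 0 h, 61.6 and 36.9 at 30 min, 56.8 and 57.7 at 1 h, and 53.6 and 50.9 at 2 h. An Ikaros fold of 10 or more was found at 37 (16.1%) and 70 (30.4%) of the 230 lost regions at 0 h and at 0 to 3 of them in each of the 6 later libraries. Folds this high went from 2.58% and 5.21% at 0 h to 0.566% and 2.07% at 2 h over all CHD4 regions, from 10.2% and 18.1% to 3.66% and 9.06% of kept ones, and from 1.62% and 2.75% to 1.12% and 3.62% of gained ones. For kept regions the median rank went from 71.4 and 73.2 to 83.7 and 81.5, and for gained regions from 53.9 and 47.0 to 67.9 and 66.5.

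**Figure D4:**
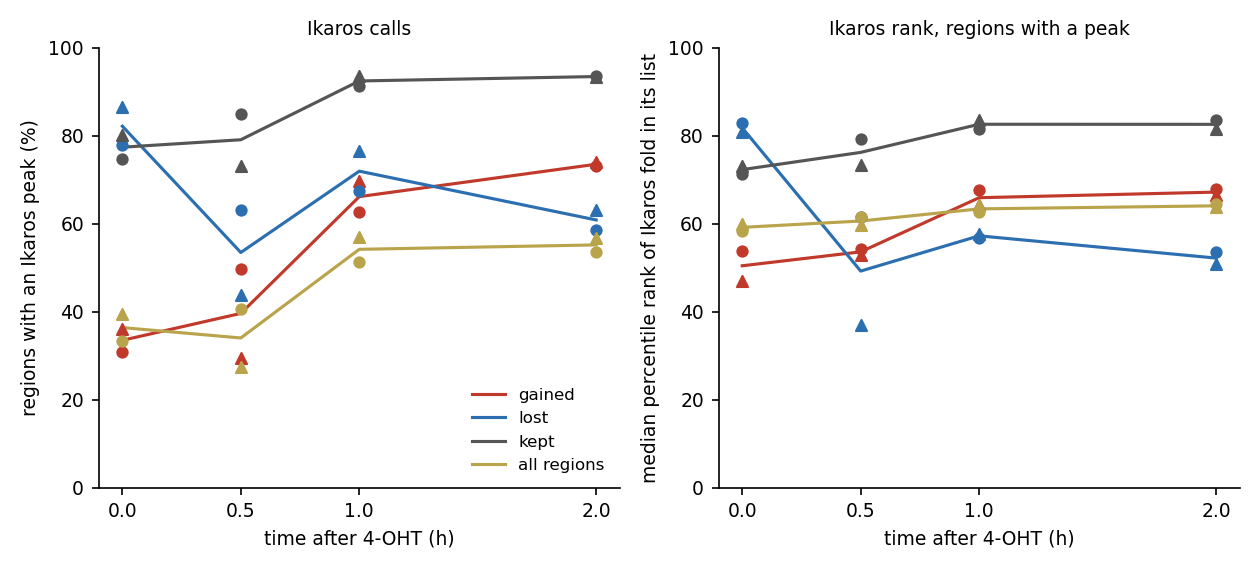
Left, percent of CHD4 regions with an Ikaros peak, and right, median percentile rank of Ikaros fold within its list over regions with a peak (y axes), against hours after 4-OHT, with circles for replicate 1, triangles for replicate 2 and lines through the means. Gained regions go from 30.8% and 36.2% to 73.0% and 74.0%, and lost regions from a median rank of 82.8 and 80.8 to 53.6 and 50.9.

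By call pattern, 204 gained regions (25.5%) overlapped an Ikaros peak in both 2 h and neither 0 h library, 189 (23.6%) in all 4 and 139 (17.4%) in none. Over all CHD4 regions 12.6% were of the first kind, 23.1% of the second, close to the gained class, and 31.4% of the third, and of 20964 merged Ikaros regions 14.0% were gained in this way. Promoters made up 76.2% of gained regions with Ikaros in all 4 libraries, 54.9% of those with Ikaros at 2 h only and 33.8% of those without it. For the same patterns over all CHD4 regions, promoters were 1676 of 3187, 862 of 1734 and 1071 of 4333, so the order was general. H3K27ac was present in all 4 libraries at 97.4%, 90.7% and 59.0% of these groups of gained regions. Among lost regions 30 (13.0%) overlapped Ikaros in both 0 h and neither 2 h library, against 2.00% of all CHD4 regions, and 4.25% of all Ikaros regions were lost in this way. Ikaros was called in all 4 libraries at 82 lost regions (35.7%) and in none at 15 (6.52%). Kept regions overlapped Ikaros in all 4 libraries in 745 cases (68.2%) and in none in 36 (3.29%). Over whole CHD4 lists the share of peaks with an Ikaros peak was 64.0% and 61.0% at 0 h and 59.6% and 65.7% at 2 h, which overlapped (difference 0.111 percentage points, exact permutation p = 1). It was 71.4% and 58.8% at 30 min and 78.1% and 81.9% at 1 h, where both libraries were above every library of the other times. The difference was 6.93 points with lists of equal length (exact permutation p = 0.667) and 5.07 points, with no overlap between the times, with a fold of at least 3 (exact permutation p = 0.333).

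The 12 gained regions of highest fold rank included 6 promoters. The first lay at the promoter of Ppp4r2, a regulatory subunit of protein phosphatase 4, on chromosome 6 from 100833123 to 100833616, where CHD4 enrichment at 2 h was 3.83-fold in replicate 1 and 4.39-fold in replicate 2, and 5.17-fold and 5.02-fold at 1 h. Ikaros was not called there at any time. The second lay in the Ppp1r16b intron shown above, on chromosome 2 from 158718957 to 158719407, with a CHD4 fold of 4.38 and 3.8 at 2 h. Ppp1r16b encodes a regulatory subunit of protein phosphatase 1. Its Ikaros fold was 4.83 and 5.21 at 1 h and 4.90 and 3.19 at 2 h, with no Ikaros peak in the 4 libraries at 0 h and 30 min. The third was intergenic, 4417 bp from Aes, a corepressor of the Groucho family, on chromosome 10 from 81553362 to 81555071. It was called for CHD4 in all 6 libraries after 0 h at a fold of 3.47 to 4.03, its Ikaros fold ran from 4.02 at 30 min to 8.96 at 2 h with no peak at 0 h, and 1 of 8 H3K27ac libraries had a peak there.

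The other promoters among the 12 were those of Slc16a5, a monocarboxylate transporter, Erbin, a scaffold protein, Rbm14, an RNA-binding coactivator, Lats2, a kinase of the Hippo pathway, and the neighbours Myl12a and Myl12b, which encode myosin regulatory light chains, with Myom1. The distal ones had Ndrg3, Ncam2, Wdfy4 and Efna5 as nearest protein-coding genes, at distances from 8292 bp (Wdfy4) to 633037 bp (Efna5). CHD4 fold at 2 h was between 3.51 and 4.39 in the 12 regions. Ikaros was called in all 4 libraries at 0 h and 2 h at 5 of them, at 2 h only at 3, in some of them at 1, and in none at 3, which were Ppp4r2, Ncam2 and Wdfy4.

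Of the 8 lost regions of highest fold rank, 6 were distal. The first was intergenic, 13636 bp from Prdm10, a zinc-finger factor, on chromosome 9 from 31266168 to 31266902. Its CHD4 fold was 4.33 and 4.62 at 0 h, and only replicate 2 at 1 h called it later. Its Ikaros fold was 10.9 and 12.8 at 0 h, 3.37 and 6.50 at 1 h and absent from the lists at 30 min and 2 h, and its H3K27ac fold was 5.15 and 6.28 at 0 h and 3.90 in replicate 1 at 30 min, with no peak in the 5 other libraries. The region nearest Tnfrsf8, which encodes the receptor CD30, on chromosome 4 from 145367108 to 145367905, had an Ikaros fold of 23.9 and 36.2 at 0 h, of 5.11 in replicate 1 at 1 h, and no peak in the other 5 later libraries. Its H3K27ac fold was 13.1 and 10.3 at 0 h and 4.26 and 2.80 at 2 h. In the intron near AI413582 on chromosome 17 from 27561934 to 27562749, the Ikaros fold was 20.7 and 22 at 0 h and 4.48 in the single 2 h library that called it, and no CHD4 library after 0 h had a peak. The other 5 were nearest to or at Cep78, a centrosomal protein, Nek6, a mitotic kinase, Scn4a, a sodium channel, Bmper, which binds bone morphogenetic proteins, and Limd1, a LIM-domain scaffold. The one listed for Nek6 lay 29671 bp from that gene and at the promoter of Gm25081. Ikaros was called in both 0 h libraries at all 8, at a higher fold in replicate 1 and in replicate 2 of 0 h than in the same replicate at 2 h wherever both were called.

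Kept regions of highest rank were found at the promoter of Rfwd3, a ubiquitin ligase of DNA repair, on chromosome 8 from 111299833 to 111302407, where the CHD4 fold was 5.14 and 5.20 at 0 h and 3.93 and 4.52 at 2 h. Another lay in an intron of Cux1, a homeodomain factor, at 4.83 and 4.23 and then 3.83 and 4.11. Others were nearest to Cpped1, Tas1r2 and Frmd4b or at the promoters of Ctnnb1, which encodes beta-catenin, and of the predicted genes Gm21887 and Gm47283 on chromosomes X and Y. The region with Cpped1 as nearest protein-coding gene lay 220929 bp from it. That region and the one at Ctnnb1 had no H3K27ac peak in any of the 8 libraries. The Ikaros fold at the Cpped1 region was nevertheless 26.0 and 40.4 at 0 h.

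By gene function, a gained region lay within 20 kb of a TSS for 942 of 21924 protein-coding genes (4.30%), a lost one for 251 (1.14%) and a kept one for 967 (4.41%). B-lineage transcription factor genes had 5 of 23 with a gained region (Bcl11a, Bcl6, Foxo1, Lef1 and Runx1), 4 with a lost one (Bcl6, Ebf1, Irf8 and Runx1) and 12 with a kept one, among them Pax5, Bach2, Ets1 and Pou2af1. Of 20 genes of pre-B and B cell receptor signalling, 4 had a gained region (Bank1, Inpp5d, Pik3cd and Ptpn6), none had a lost one and 13 had a kept one, including Cd79a, Cd79b, Blnk, Igll1 and Vpreb1. Of 14 adhesion and migration genes, Cxcr4, Itga5 and Itgb7 had a gained region, none a lost one and 2 a kept one. For 12 genes of the IL-7 receptor and STAT5 pathway the counts were 0 gained, 2 lost (the neighbours Stat5a and Stat5b, which share 1 region) and 4 kept.

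Among 14 NuRD subunit genes only Gatad2a, which encodes a structural subunit, had a gained, lost or kept region, and it was gained. Regions outside these classes were not counted for any list. Of 9 genes of V(D)J recombination 1 had a kept region, Dntt, which adds untemplated nucleotides to joints. Cell cycle genes had 1 of 21 gained, the cyclin gene Ccnd3, and 2 kept. The BCL2 family had 2 of 10 kept, and immediate early genes had 1 of 13 gained (Egr2) and 5 kept. Cytosolic ribosomal protein genes had 6 of 82 gained, 1 lost and 7 kept. Of 10 genes the study places in its fast-repressed group, 4 had a gained region (Bcl11a, Endod1, Itga5 and Plekho2), none a lost one and 7 a kept one. The study chose those genes in these cells, so their count is not independent evidence. It also names others as fast-repressed. Of these, Myc, Ccnd1 and Ccnb1, counted above with the cell cycle genes, had no gained, lost or kept region.

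Several of these genes show the classes at close range. At Foxo1, a transcription factor that drives Rag gene expression, a gained region lay 288 bp from a TSS on chromosome 3 from 52266208 to 52268048, with a CHD4 fold of 2.97 and 3.03 at 2 h, and of 3.40 in replicate 2 at 30 min and 3.55 in replicate 1 at 1 h. Ikaros was absent from both 0 h lists there and had a fold of 6.25 and 4.69 at 1 h and 5.18 and 4.53 at 2 h. At Bcl11a the gained region had a CHD4 fold of 3.35 and 2.88 at 2 h and no call at any earlier time, with Ikaros at a fold of 3.24 and 4.93 at 0 h and 6.23 and 8.00 at 2 h. At the promoter of Cxcr4, a chemokine receptor, CHD4 was called in all 6 libraries after 0 h at a fold of 3.25 to 4.32. The promoters of Pik3cd and Inpp5d, a lipid kinase and a lipid phosphatase of receptor signalling, were called in both 2 h libraries, and that of Pik3cd in both 1 h libraries too. Pik3cd had a second promoter region, from 149701207 to 149704773 on chromosome 4, that was kept, with a CHD4 fold of 3.27 and 4.22 at 0 h and 3.30 and 4.21 at 2 h. A kept promoter region also lay near the gained one at Lef1, and Inpp5d had 2 kept distal regions.

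Bcl6 and Runx1 each had a gained and a lost region next to each other. In the Bcl6 introns they were 1388 bp apart, with a CHD4 fold of 3.59 and 3.17 at 0 h in the lost and of 3.49 and 2.85 at 2 h in the gained one. Both overlapped H3K27ac and Ikaros peaks in all 4 libraries of each at 0 h and 2 h. In the Runx1 intron they were 1836 bp apart, at 3.74 and 3.39 at 0 h and 3.47 and 3.12 at 2 h. Over all lost regions, 3 of 230 had a gained region within 2 kb and 5 within 5 kb. The lost region listed for Irf8, on chromosome 8 from 120762856 to 120763798, lay within 20 kb of an Irf8 TSS. It had an Ikaros fold of 9.29 and 12.6 at 0 h and no Ikaros peak at 2 h. Its H3K27ac fold was 12.8 and 16.9 at 0 h and 6.99 and 7.02 at 2 h. The lost region at the Stat5b promoter kept an Ikaros peak at 2 h, at a fold of 4.94 and 4.29 against 3.45 and 3.70 at 0 h. The lost region at Ebf1, 259 bp from a TSS, had a CHD4 fold of 2.78 and 3 at 0 h.

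Within the kept regions the order by CHD4 fold was poorly shared between replicates. The correlation of ranks across the 1093 regions was 0.312 between the 0 h replicates, 0.329 between the 2 h replicates, and 0.243 and 0.335 between 0 h and 2 h within replicates 1 and 2. Regions share their libraries and are not replicates, so these values are descriptions. The shift in rank from 0 h to 2 h correlated between replicates at 0.139, and was upward in both replicates in 307 regions and downward in both in 308. A shift of over 10 percentile points in both replicates was seen upward in 175 and downward in 176 regions. The upward regions overlapped Ikaros at 2 h only in 28 cases (16.0%) and the downward ones in 9 (5.11%), on either side of the 109 of all 1093 kept regions (9.97%). The mean H3K27ac rank of the upward regions was 77.6 and 75.8 at 0 h and 80.5 and 79.9 at 2 h, and that of the downward ones was 80.1 and 79.3 and then 73.0 and 70.5. In the libraries not used to choose them, the median CHD4 rank of the upward regions was 51.5 and 52.8 at 30 min and 59.4 and 54.4 at 1 h, against 50.8 and 55.1 and 48.7 and 52.3 for the downward ones.

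**Figure D5:**
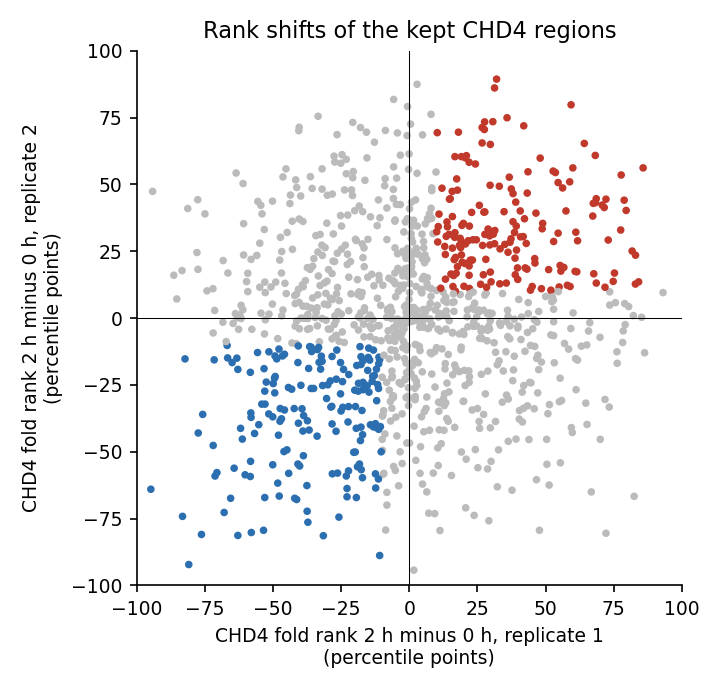
Change in CHD4 fold rank among the 1093 kept regions from 0 h to 2 h, in percentile points, in replicate 1 (x axis) and replicate 2 (y axis), 1 point a region. The 175 regions up by over 10 in both replicates are red and the 176 down by over 10 in both are blue, and the cloud has little slope (r = 0.139).

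The 5 largest rises were nearest to or at Lclat1, Parvg, an actin-linked adhesion protein of blood cells, Trp53i11, Def6 with Zfp523, and Gm32742. At the Def6 promoter, which serves an exchange factor of lymphocyte signalling, the CHD4 fold was 3.48 and 3.31 at 0 h and 4.15 and 4.16 at 2 h. The 5 largest falls were nearest to Gm21860 and Gm21748 on chromosome Y, Incenp, Tas1r2 and Ttll11. Near Incenp, which encodes a protein of the chromosomal passenger complex, the fold was 5.21 and 4.35 at 0 h and 2.97 and 3.08 at 2 h. Over whole lists the median fold was 3.56 and 3.36 at 0 h and 3.13 and 3.15 at 2 h, a difference of -0.32 with no overlap (exact permutation p = 0.333, the smallest possible). With lists of equal length it was -0.135 (exact permutation p = 0.667). The median peak width was 562 and 763 bp at 0 h and 645 and 805 bp at 2 h (difference 62.5 bp, exact permutation p = 0.667).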

How the data were processed

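CHD4, HA-Ikaros and H3K27ac were mapped by ChIP-seq, and groups were taken from the sample titles. Reads were mapped by the authors to mm10 with Bowtie2 2.4.2, duplicates marked with Picard 2.23.7 and peaks called per library with MACS2 2.2.7.1, in broad mode for CHD4. Settings for the 30 min libraries, the input used for each library and whether a blacklist was applied to the peak lists, as it was to the coverage tracks, are not given in the sources used here. The deposited lists give, for every peak, a fold enrichment (a ratio) and −log10 p and q values, used as deposited. The authors' score column was not used. No read counts were used.

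The 4 CHD4 lists were merged where peaks shared 1 bp. Genes were those of GENCODE M21. A promoter lay within 1 kb of any TSS. Overlap with H3K27ac and Ikaros needed 1 bp. Windows were read from GRCm38. Coverage of the narrow lists was recovered from fold and p, and is that left after MACS2 scales the deeper of ChIP and input to the other. The 11 trends were tested with exact two-sided permutation of time over 8 libraries, with Benjamini-Hochberg adjustment, and values per library with exact permutation of 2 against 2. The code was tested on simulated data, in Python 3.11.15 with pandas 2.3.3 and scipy 1.17.1. Named were the 12 gained, 8 lost and 8 kept regions of highest mean fold rank, genes of 11 lists with a gained or lost region within 20 kb, and the 5 largest rises and falls among kept regions. The classes and lists were chosen with earlier results of these data known. The 8 inputs were not analysed here.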

Additional observations from a re-analysis of the deposited data

How the results depend on the processing

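The numbers of gained, lost and kept regions followed the length and strength of the lists. With a −log10 q of at least 3 they were 54, 67 and 45, of which 7, 11 and 45 overlapped the class of the same name, with a fold of at least 3 the gained ones were 481, and with lists of equal length they were 194, 450 and 389, of which 100, 114 and 389 overlapped the class of the same name. Stitching peaks within 500 bp, merging over all 8 CHD4 lists and an overlap of 50% kept them within 1.5 times, the last by construction, since each peak lies within its region. Leaving out a library or a replicate number gave 904 to 5672 gained, 285 to 1991 lost and 1108 to 3860 kept regions, again by construction, since fewer calls are asked for. Lists of equal length give no value for the number of peaks per library.

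The trends at the lost and gained regions and their differences from kept regions kept their direction in every setting tried. The −log10 q of at least 3 was not among the settings tried for the trends. With 1 replicate number at all times, 4 libraries remain and p cannot go below 0.0833, so no trend could pass. The rank correlation then ranged from -1 to -0.949 for H3K27ac calls at lost regions, 0.4 to 0.8 at gained and -0.316 to 0.949 at kept. It was 1 in both for H3K27ac rank at gained regions and for gained minus kept, -1 in both for lost regions and lost minus kept, and -0.8 to -0.4 at kept regions. For Ikaros calls it ranged from 0.8 to 1 at gained, -0.8 to -0.4 at lost and 0.6 to 1 at kept regions. Ranked over all peaks of a list, rho was 0.586 for H3K27ac rank at gained regions, -0.537 at lost regions and -0.634 for lost minus kept, and none of these passed. The sign of the H3K27ac call share at kept regions, which did not pass in any setting, turned with a CHD4 fold of at least 3 (-0.667) and with H3K27ac lists of equal length (-0.540). Ikaros calls at lost regions passed with Ikaros lists of equal length (-0.976), and those at kept regions did not with a CHD4 fold of at least 3 (0.781). The cause was not tested.

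The labels do not say that replicate numbers pair libraries, and the difference between replicates correlated between times at -0.0474 to 0.176 over regions called in all 8 lists of a target, so the numbers were not taken as pairs. With a replicate block, Ikaros calls at kept regions no longer passed (mean within-replicate rho 0.80, adjusted p = 0.0982), and the other 10 trends kept their side of the threshold. Of the values per library, which no setting could bring past a threshold, leaving out a library moved the difference in CHD4 peaks from 1279 to 5349, in promoter share from 3.83 to 9.46 points, in median fold from -0.416 to -0.224 and in the share with H3K27ac from -15.3 to -9.21 points. The sign turned for median width (-38.0 to 163 bp, negative without replicate 1 at 0 h, -38.0, and without replicate 2 at 2 h, -17.5) and for the share with an Ikaros peak (-2.97 to 3.19 points, negative without replicate 2 at 0 h, -1.39, and without replicate 2 at 2 h, -2.97). With lists of equal length these differences were 9.73 points for promoter share, 153 bp for width, -0.135 for fold, -7.32 points for H3K27ac and 6.93 points for Ikaros. With a fold of at least 3 they were 1445 peaks, 8.31 points, 106 bp, -0.238, -9.80 points and 5.07 points, and with a −log10 q of at least 3 they were 185 peaks, 10.04 points, 115 bp, -0.256, -2.97 points and 2.60 points. Promoter shares of the classes under other lists were added after seeing the data. A region missing from a list was below that library's threshold and not shown to be unbound, and CHD4 sequencing depth could not be recovered.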
